A study of Mus musculus with 10 samples.

Results

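The MHC class II presentation genes described here were Cd74, H2-Aa, H2-Ab1, H2-Eb1, Ciita, H2-DMa and H2-DMb1. They were taken as every array probe annotated to 1 of these 7 gene symbols, which gave 13 of the 45281 probes on the array. Of these, 9 probes of 5 genes were bright enough to test, and 4 probes were not, among them the only probe of H2-Aa and both probes of Ciita. Expression had been measured on Illumina mouse bead arrays in the subventricular zone (SVZ), the germinal layer along the lateral ventricle, captured by laser microdissection. There were 4 Tlx overexpressing mice (2995, 3155, 3157 and 3163) and 5 wild type mice (c1, c2, 2989, 2996 and 3164), all of the BL6 strain and 8 weeks old. A stroke by ischemia of the striatum on 1 side had been induced in all 9 mice, wild type included. Tlx is the nuclear receptor encoded by Nr2e1. The labels name neither the promoter that drives it nor the hemisphere captured, nor the time after the stroke.

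MHC class II molecules are heterodimers of an alpha and a beta chain that show peptides from engulfed proteins to CD4+ T cells. Cd74, the invariant chain, escorts new heterodimers to the endosome and blocks their groove, and H2-DM, itself a heterodimer, then exchanges the last Cd74 fragment for a peptide. Ciita is the coactivator that switches the family on: it does not bind DNA itself but joins factors already sitting on the X and Y boxes of class II promoters. In brain tissue these genes are known mainly from border macrophages, dendritic cells and activated microglia.

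The promoter stretches of 3 members that hold motifs of those boxes are shown because Ciita acts through them. RefSeq promoter windows (GRCm38.p6, 250 bases before each gene's start) were matched for H2-DMb1, H2-Aa, H2-Eb1 and H2-DMa. No window was available here for Cd74, H2-Ab1 or Ciita, so their promoters were not searched. Capitals mark the X box core AACNGATG or the cyclic AMP response element TGACGTCA, and then the Y box core TGATTGG. These letters were chosen after the sequences had been read. Both strands were searched, and the motifs do not overlap in the stretches below, which run 5′ to 3′ on the gene's strand.
H2-DMb1, chr17:34153087-34153146, plus strand: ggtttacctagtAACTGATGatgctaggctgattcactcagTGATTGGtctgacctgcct
H2-Aa, chr17:34287855-34287909, minus strand: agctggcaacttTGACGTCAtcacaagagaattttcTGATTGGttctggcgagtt
H2-Eb1, chr17:34305766-34305824, plus strand: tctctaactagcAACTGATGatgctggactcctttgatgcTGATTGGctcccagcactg
The gap between the 2 marked motifs was 21 bases in H2-DMb1, 16 in H2-Aa and 20 in H2-Eb1. In H2-Aa it was counted from the cyclic AMP response element and in the others from the X box core. The gap of H2-Aa is therefore not comparable with the others. Over all 32851 windows of the same length, 652 (1.98%) held the X box core, 508 (1.55%) the cyclic AMP response element and 2375 (7.23%) the Y box core. A Y box core together with either of the other motifs was found in 89 windows (0.271%), which include these 3. The 2 windows of H2-DMa held none of these letters. A match is a description of the letters and shows no binding.

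Between 44.3% and 45.5% of the probes were detected on an array, that is, had a deposited detection p-value under 0.05. The 2 arrays of wild type mouse c1 correlated at 0.9964 over the 20401 tested probes, against 0.9789 to 0.9955 for arrays of different mice, and were averaged and counted as 1 mouse. Nr2e1, the overexpressed gene, averaged a log2 signal of 5.43 with Tlx overexpression against 5.01 without it, a difference of 0.41 ± 0.11 (SE) with an adjusted p of 0.0839 in limma. Of 10 SVZ markers 9 were measured, among them Dcx of neuroblasts, Egfr of activated precursors and Foxj1 of ependymal cells. The mouse names fall into 3 ranges: 2989 to 2996, 3155 to 3164, and c1 with c2, and the meaning of these ranges is not labelled. Only wild type mice are in the last range.

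Cd74 was bright in wild type mouse c1 and close to a common level in most of the others. The probe ILMN_3089584 had log2 signals of 6.76, 6.61, 6.62 and 6.69 in Tlx overexpressing mice 2995, 3155, 3157 and 3163. It had 8.59, 7.31, 6.65, 6.73 and 6.18 in wild type mice c1, c2, 2989, 2996 and 3164. The wild type mice thus lay on both sides of the Tlx overexpressing ones, with c1 and c2 above all 4, mouse 3164 below all 4, and 2989 and 2996 among them. The 2 arrays of c1 gave 8.57 and 8.61, so its high value was read on each of them. The mean was 6.67 ± 0.07 (SD, n = 4) with Tlx overexpression, against 7.09 ± 0.93 (SD, n = 5) in the wild type. The difference was -0.42 ± 0.36 (SE, 95% interval -1.19 to 0.35), with an adjusted p of 0.564 in limma. It was smaller than the spread between wild type mice and was not called.

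A probe's range over the mice can be set against all others on the array. From the lowest to the highest mouse, Cd74 ILMN_3089584 covered 5.30-fold, and its SD over the 9 mice was higher than that of 99.75% of the tested probes. In c1 it was 3.78-fold above the median of the other mice. As deposited before normalization, its intensity ran from 93.7 to 396 across the arrays, where the array medians were 36.8 to 43.2.

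The other Cd74 probes were also highest in c1. ILMN_1221817 had log2 signals of 6.52, 6.40, 6.39 and 6.31 in Tlx overexpressing mice 2995, 3155, 3157 and 3163, against 8.30, 7.03, 6.53, 6.63 and 5.86 in wild type mice c1, c2, 2989, 2996 and 3164. Again c1 and c2 were highest and 3164 lowest, and the genotypes overlapped. Its difference was -0.47 ± 0.35 (SE), with an adjusted p of 0.507 in limma. The third probe, ILMN_1247832, was detected on 2 arrays only, both of c1. Its signal was 4.23 to 4.33 in the Tlx overexpressing mice, against 5.28 in c1 and 4.27 to 4.45 in the other wild type mice, and it was not tested.

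**Figure D1:**
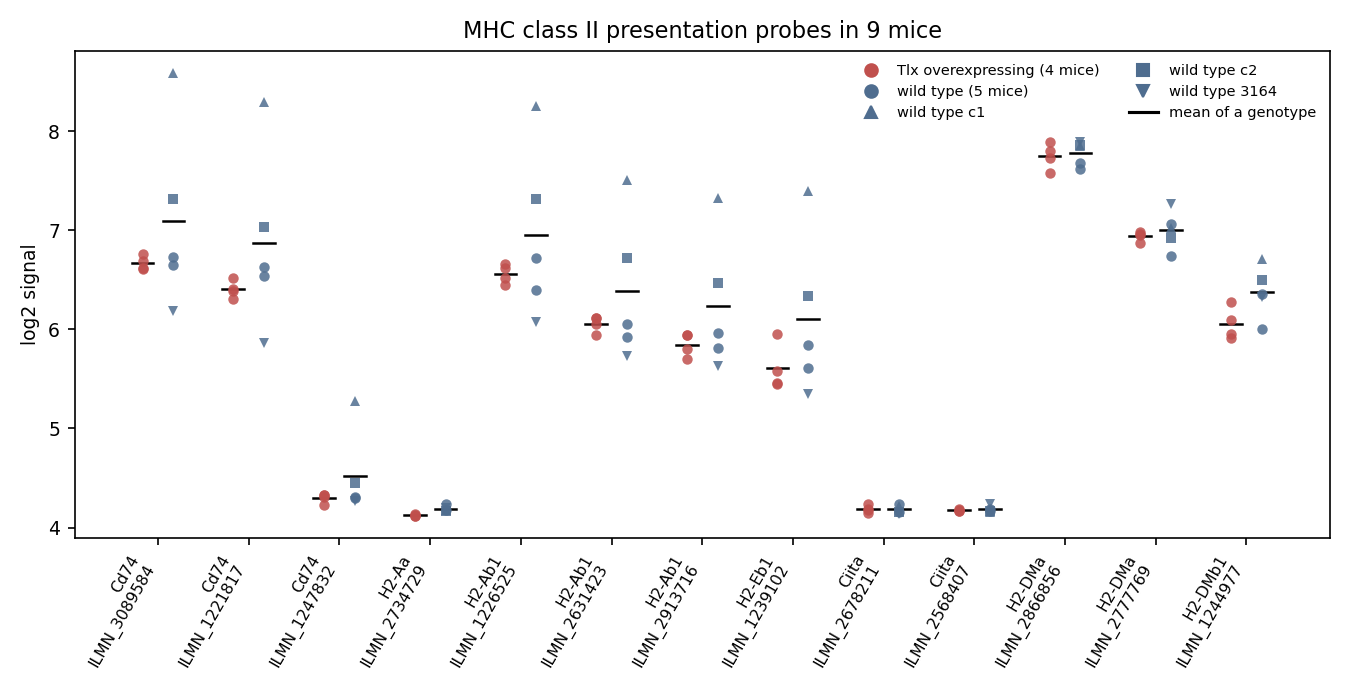
Log2 signal (vertical axis) of all 13 probes of the 7 genes, 1 point per mouse, with Tlx overexpressing mice left of wild type mice and a bar at each genotype mean. In the brighter Cd74, H2-Ab1 and H2-Eb1 probes wild type mouse c1 (up-pointing triangle) is highest, c2 (square) next and 3164 (down-pointing triangle) lowest, while the probes of H2-Aa and Ciita lie near 4.2 in all mice.

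H2-Ab1, the beta chain of the I-A heterodimer, had the same mice as Cd74 at its extremes, with c1 and c2 highest and 3164 lowest. ILMN_1226525, its brightest probe, had log2 signals of 6.45, 6.62, 6.52 and 6.66 in Tlx overexpressing mice 2995, 3155, 3157 and 3163. It had 8.25, 7.32, 6.40, 6.73 and 6.08 in wild type mice c1, c2, 2989, 2996 and 3164. Mice c1 and c2 were above every Tlx overexpressing mouse, 2996 was slightly above them, and 2989 and 3164 were below. The difference was -0.39 ± 0.33 (SE, 95% interval -1.11 to 0.32), with an adjusted p of 0.568 in limma, from a mean of 6.56 ± 0.10 (SD, n = 4) with Tlx overexpression, against 6.95 ± 0.86 (SD, n = 5) in the wild type.

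The other probes of H2-Ab1 gave like values. ILMN_2631423 ran from 5.94 to 6.12 in Tlx overexpressing mice and from 5.73 to 7.51 in wild type mice, with a difference of -0.33 ± 0.28 (SE) and an adjusted p of 0.576 in limma. ILMN_2913716 ran from 5.70 to 5.95 in Tlx overexpressing mice and from 5.63 to 7.33 in wild type mice, with a difference of -0.39 ± 0.27 (SE) and an adjusted p of 0.468 in limma. In both, c1 held the highest wild type value, c2 the next and 3164 the lowest.

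H2-Eb1 encodes the beta chain of the I-E heterodimer, which BL6 mice do not assemble because their alpha chain gene, H2-Ea, is defective. Its only probe, ILMN_1239102, had log2 signals of 5.95, 5.58, 5.45 and 5.46 in Tlx overexpressing mice 2995, 3155, 3157 and 3163, against 7.40, 6.33, 5.62, 5.84 and 5.34 in wild type mice c1, c2, 2989, 2996 and 3164. Tlx overexpressing mouse 2995 was above 3 of the 5 wild type mice, and c1 was 3.49-fold above the median of the other mice. The mean was 5.61 ± 0.24 (SD, n = 4) with Tlx overexpression, against 6.11 ± 0.81 (SD, n = 5) in the wild type. The difference of -0.50 ± 0.32 (SE, 95% interval -1.19 to 0.20) had an adjusted p of 0.444 in limma.

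H2-Aa, the alpha chain that pairs with H2-Ab1, was not detected on any of the 10 arrays. Its probe ILMN_2734729 had detection p-values of 0.392 to 0.975 and log2 signals of 4.12 to 4.14 in Tlx overexpressing mice and 4.17 to 4.24 in wild type mice. These values do not overlap, but all lie below the detection threshold, so no fold change was drawn from them. In c1, where the H2-Ab1 probes were at their highest, the H2-Aa probe was at 4.18. What kept this probe dim was not tested.

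Ciita was also not detected on any array. Its probe ILMN_2678211 had detection p-values of 0.331 to 0.874 and signals of 4.15 to 4.24 in Tlx overexpressing mice and 4.14 to 4.24 in wild type mice. ILMN_2568407 had detection p-values of 0.363 to 0.848, with signals of 4.16 to 4.19 in Tlx overexpressing mice and 4.15 to 4.24 in wild type mice. Mouse c1 did not stand out for either Ciita probe, with 4.22 and 4.15, so the level of the coactivator could not be read at the sensitivity of these probes.

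The H2-DM chains varied less between mice than Cd74, and only H2-DMb1 had its highest values in c1 and c2. H2-DMa, the alpha chain of the peptide exchange factor, had log2 signals on ILMN_2866856 of 7.58, 7.89, 7.73 and 7.80 in Tlx overexpressing mice 2995, 3155, 3157 and 3163. In wild type mice c1, c2, 2989, 2996 and 3164 it had 7.85, 7.86, 7.68, 7.62 and 7.89. The ranges of the genotypes nearly coincided, and c1 was not at an end of either. The difference was -0.03 ± 0.09 (SE, 95% interval -0.23 to 0.17), with an adjusted p of 0.905 in limma. The SD over the mice exceeded that of only 22.9% of the tested probes.

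The other H2-DMa probe, ILMN_2777769, ran from 6.87 to 6.99 in Tlx overexpressing mice and from 6.74 to 7.27 in wild type mice. Its highest value was in wild type mouse 3164, the mouse that was lowest for Cd74. The difference was -0.06 ± 0.10 (SE), with an adjusted p of 0.787 in limma.

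H2-DMb1, a beta chain of the same exchange factor, had log2 signals on ILMN_1244977 of 6.27, 5.96, 5.91 and 6.10 in Tlx overexpressing mice 2995, 3155, 3157 and 3163. In wild type mice c1, c2, 2989, 2996 and 3164 it had 6.71, 6.50, 6.01, 6.36 and 6.33. All wild type mice but 2989 lay above every Tlx overexpressing mouse. The difference was -0.32 ± 0.13 (SE, 95% interval -0.60 to -0.04), from a mean of 6.06 ± 0.16 (SD, n = 4) with Tlx overexpression, against 6.38 ± 0.26 (SD, n = 5) in the wild type. Its p in limma was 0.0264 before adjustment and 0.216 after it, so it was not called. The 2 arrays of c1 differed by 0.25 on this probe, reading 6.83 and 6.58. H2-DMb2, the neighbouring and closely related beta chain gene, had 6.51 ± 0.09 in Tlx overexpressing mice and 6.81 ± 0.27 in wild type mice (SD, n = 4 and 5), a difference of -0.30 with an adjusted p of 0.233 in limma. Signal shared between the 2 genes cannot be told apart here.

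Over all members, 0 of the 9 tested probes were called between genotypes at an adjusted p of 0.05 in limma, where 0.941% of all tested probes were called (192 of 20401). Before adjustment 1 of the 9 had a p under 0.05, against 17.6% of all tested probes. The log2 difference was below 0 for 9 of the 9 members' probes and for 49.1% of all probes, and its median was -0.39 for the members and 0.0038 for all probes. In 0 of the 9 did every mouse of 1 genotype lie above every mouse of the other, against 6.28% of all tested probes. Tissue was measured in bulk, so fewer cells with class II RNA and less of it per cell cannot be told apart.

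For Cd74, H2-Ab1 and H2-Eb1 the negative sign rested on 2 wild type mice. Without c1 and c2 the difference became 0.15 ± 0.13 for Cd74 (SE, adjusted p = 0.567 in limma), 0.16 ± 0.14 for H2-Ab1 (adjusted p = 0.563) and 0.01 ± 0.15 for H2-Eb1 (adjusted p = 0.978), for the brightest probe of each. With the range of the mouse name as a block it was 0.27 for Cd74, 0.22 for H2-Ab1 and 0.19 for H2-Eb1, none of them called. Among mice named 2989 to 2996 (1 Tlx overexpressing, 2 wild type) it was 0.07 for Cd74, -0.11 for H2-Ab1 and 0.22 for H2-Eb1. Among those named 3155 to 3164 (3 Tlx overexpressing, 1 wild type) it was 0.46, 0.52 and 0.15 for the same genes. In each of these ranges 6 of the 9 members' probes had a positive difference and 3 a negative one. The range of c1 and c2 holds only wild type mice, so with the block these mice add nothing to the genotype difference. The fit without them, the block and the values within ranges thus compare the same mice and are not separate tests. The H2-DMa probe ILMN_2777769 stayed negative, at -0.08 ± 0.12 (SE) without c1 and c2 and -0.15 ± 0.12 (SE) with the block. ILMN_2866856 was at 0.02 ± 0.11 and -0.08 ± 0.09 (SE) in the same fits.

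**Figure D2:**
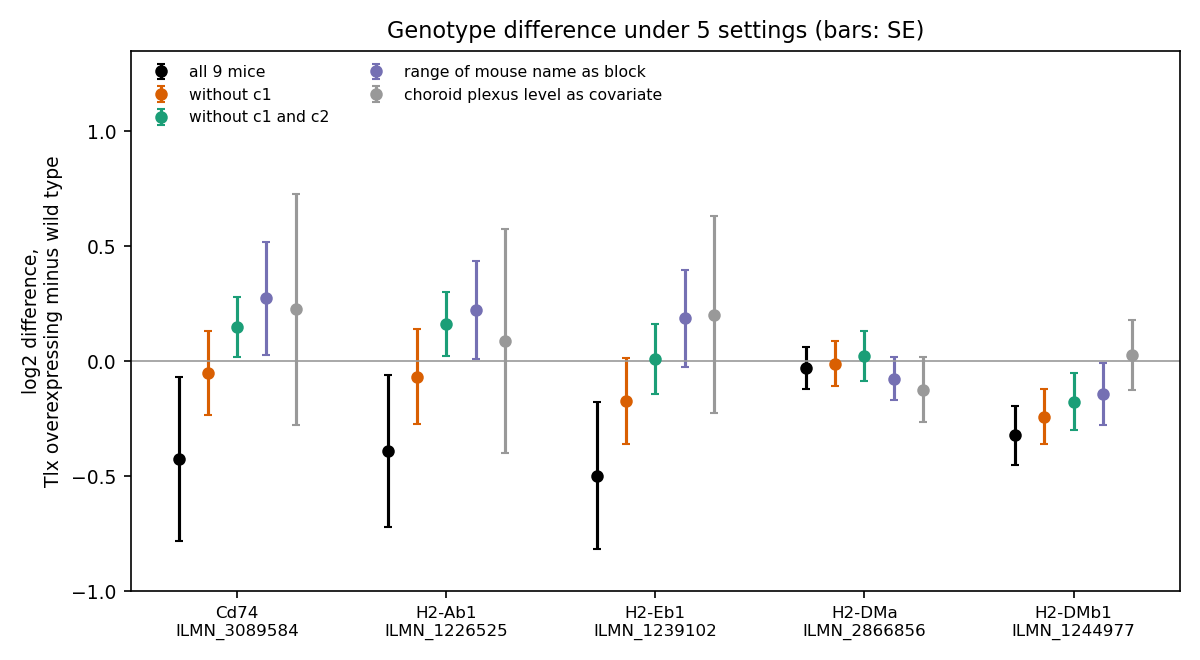
Log2 difference, Tlx overexpressing minus wild type (vertical axis), for the brightest probe of each of 5 genes with all 9 mice and under 4 other settings; bars are the SE of the limma fit. The values of Cd74, H2-Ab1 and H2-Eb1 move from below 0 with all mice to above 0 in the settings other than leaving out c1 alone. The block and the setting without c1 and c2 compare the same mice between genotypes.

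For H2-DMb1 the difference stayed negative but became smaller in these fits, at -0.18 ± 0.12 (SE) without c1 and c2 (adjusted p = 0.472 in limma) and -0.14 ± 0.13 (SE) with the block (adjusted p = 0.711). It was 0.09 among mice named 2989 to 2996 and -0.34 among those named 3155 to 3164. On leaving out each mouse in turn it was between -0.42 and -0.24, with adjusted p of 0.0893 or more in limma. It turned to 0.03 ± 0.15 (SE) when the mean level of choroid plexus genes was added as a covariate. In that setting Cd74 was at 0.23 ± 0.50, H2-Ab1 at 0.09 ± 0.49, H2-Eb1 at 0.20 ± 0.43 and H2-DMa ILMN_2866856 at -0.12 ± 0.14 (SE). The choroid plexus level was itself lower in most Tlx overexpressing mice, so this fit cannot separate it from genotype.

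Between mice, Cd74, H2-Ab1 and H2-Eb1 varied together. Of the 9 tested probes, 7 were highest in c1 and had their next highest value in c2: those of Cd74, H2-Ab1, H2-Eb1 and H2-DMb1. With 1 probe per gene and all 9 mice, Pearson's r was 0.98 between Cd74 and H2-Ab1 (rho = 0.73), 0.98 between Cd74 and H2-Eb1 (rho = 0.92) and 0.95 between H2-Ab1 and H2-Eb1 (rho = 0.67). The exact permutation p of r, adjusted over the 10 pairs, was 0.0042, 0.0008 and 0.0080 in that order. For rho the adjusted exact permutation p was 0.118, 0.0131 and 0.118.

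**Figure D3:**
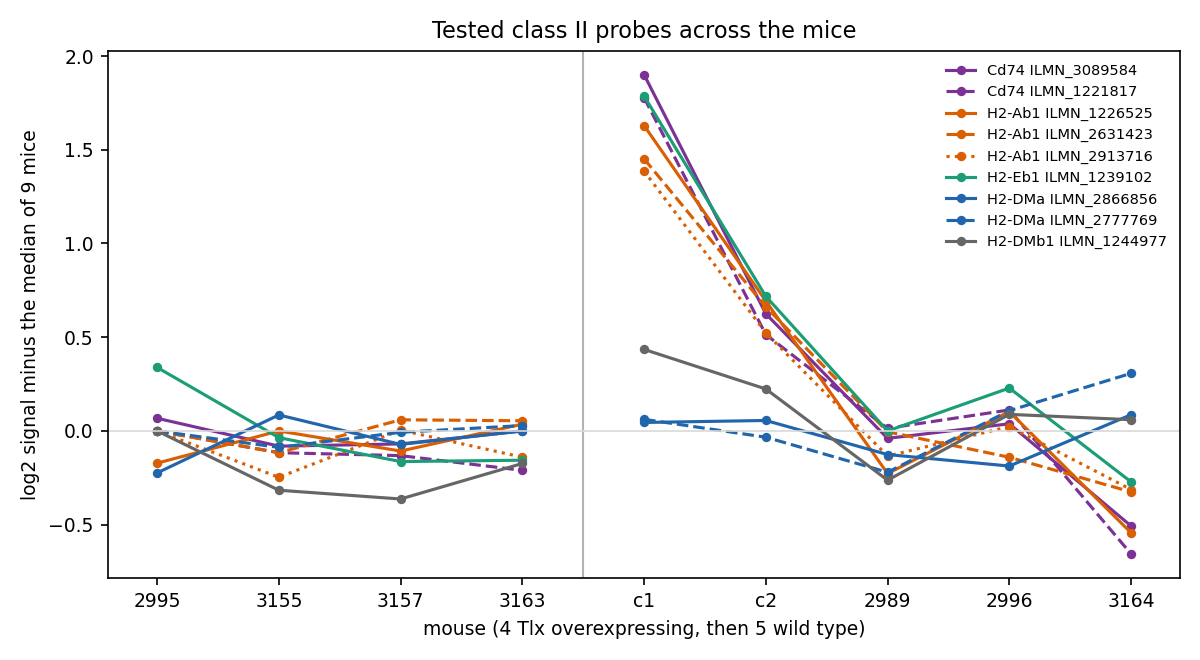
Log2 signal of the 9 tested probes minus each probe's own median over the 9 mice (vertical axis), by mouse, with the 4 Tlx overexpressing mice left of the 5 wild type mice. Lines join the mice of a genotype for reading only. Cd74, H2-Ab1 and H2-Eb1 peak in c1, and H2-DMb1 peaks there at 0.44. The H2-DMa probes do not peak in c1, and ILMN_2777769 is highest in 3164.

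H2-DMb1 followed more loosely, with r of 0.72 with Cd74 (rho = 0.70), 0.71 with H2-Ab1 (rho = 0.57) and 0.81 with H2-Eb1 (rho = 0.67), and adjusted exact permutation p of r of 0.0414, 0.0414 and 0.0107. For the same pairs the adjusted exact permutation p of rho was 0.118, 0.201 and 0.118. H2-DMa did not follow. On its brightest probe, its r with the other genes ran from 0.13 to 0.28 and its rho from -0.37 to 0.12. The adjusted exact permutation p was at least 0.722 for r and 0.480 for rho. In all, 6 of 10 pairs passed an adjusted p of 0.05 by r and 1 of 10 by rho.

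These relations rested largely on c1 and c2. For each pair, the 2 mice farthest from the median were taken from its first gene, in the order of the gene list. For Cd74, H2-Ab1 and H2-Eb1 these mice were c1 and c2. Without them r was 0.82 for Cd74 with H2-Ab1, 0.69 for Cd74 with H2-Eb1 and 0.41 for H2-Ab1 with H2-Eb1, over 7 mice. It became -0.22 for H2-DMb1 with Cd74, -0.23 with H2-Ab1 and 0.38 with H2-Eb1, and none of the 10 pairs kept an adjusted exact permutation p under 0.05. H2-DMa without c1 and c2 had r of -0.69 with Cd74 and -0.83 with H2-Eb1, each with an adjusted exact permutation p of 0.124. For H2-DMa with H2-DMb1, r was 0.16 (rho = 0.12) over all mice and 0.50 without mice 2995 and 2996, the farthest for H2-DMa. This relation depended on the H2-DMa probe. ILMN_2777769 had r of 0.44 with H2-DMb1 over all mice and 0.70 without c1 and c2, where the brighter ILMN_2866856 had -0.28. A range of mouse names holds too few mice for an r of its own.

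On deviations from each genotype's mean, pooled over the 9 mice and c1 and c2 included, r was 0.98 for Cd74 with H2-Ab1, 0.98 for Cd74 with H2-Eb1 and 0.94 for H2-Ab1 with H2-Eb1. Among the Tlx overexpressing mice alone, which differ little, the brightest probes did not share an order. On these, 2995 was highest of the 4 for Cd74 and H2-Eb1 and lowest for H2-Ab1. The other H2-Ab1 probes did not have 2995 lowest. It was at 5.94 on ILMN_2913716, where the highest was 5.95, and at 6.06 on ILMN_2631423, where the range was 5.94 to 6.12. A genotype holds too few mice for an r of its own. The brighter Cd74 probes varied alike, with r of 0.99 over 9 mice and 0.93 without c1 and c2. Those of H2-Ab1 had r of 0.97 to 0.98 with each other over 9 mice, but 0.54 to 0.61 without c1 and c2. The tested H2-DMa probes did not vary alike, with r of 0.25 over 9 mice and 0.29 without c1 and c2. All points share the same arrays and tissue pieces.

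**Figure D4:**
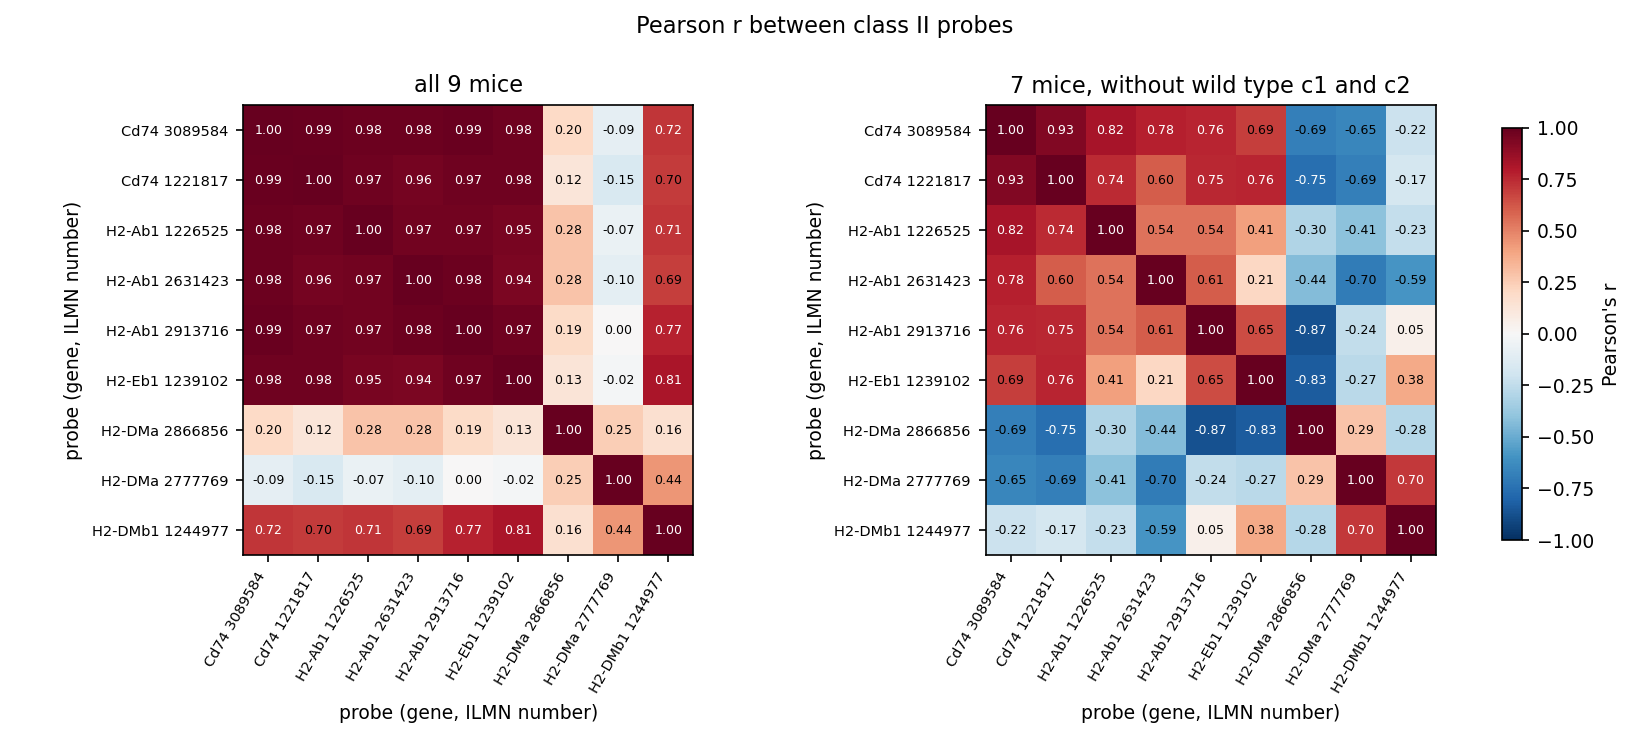
Pearson's r between the log2 signals of the 9 tested probes, over all 9 mice (left) and over 7 mice without wild type c1 and c2 (right), with r printed in each cell and colour from -1 (blue) to 1 (red). Over all mice the Cd74, H2-Ab1 and H2-Eb1 probes form a block at 0.94 and above; without c1 and c2 it loosens to between 0.21 and 0.93, and H2-DMa turns negative against it.

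Ranked over the array by r with Cd74 ILMN_3089584, the nearest of the 20400 other tested probes was the second Cd74 probe. The 3 H2-Ab1 probes were at ranks 2, 3 and 4 and H2-Eb1 at rank 6, with r of 0.99 to 0.98. H2-DMb1 was at rank 498 and the H2-DMa probes at ranks 5966 and 11293. Only 33 probes (0.162%) had an r above 0.9, and 7 of them still did without c1. Beyond the members, the 12 nearest named genes were Tmc6, Pecam1 (an endothelial adhesion molecule), Lrrc41, Jade2, Pmepa1, Dennd2a, Tmem267, Trip12 (a ubiquitin ligase), Lrch1, Anxa3, Cox15 and Anp32e (a histone chaperone), with r of 0.97 to 0.93 over the 9 mice.

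Without c1, r with Cd74 was between 0.48 and 0.91 for these 12 genes, against 0.96 for the second Cd74 probe, 0.93 to 0.94 for the H2-Ab1 probes and 0.89 for H2-Eb1. Their range was also small, with a median SD over the mice of 0.12, where Cd74 had 0.69. Tmem267 was an exception, at 7.71 in c1 and a median of 6.09 in the other mice. Of the 12 genes 7 had other tested probes, 9 in all, and 1 of those 9 had an r with Cd74 above 0.9. These were 0.91 for Pmepa1, 0.80 for Anxa3, 0.43 and 0.57 for Tmc6, 0.35 for Pecam1, 0.08 and -0.02 for Trip12, 0.04 for Jade2 and -0.02 for Anp32e. The 5 genes most opposed to Cd74 were Anapc2, Gnaz, Maf1 (a repressor of RNA polymerase III), Sybu and Stambp, with r of -0.96 to -0.93. Maf1 was at 10.63 in c1 and a median of 10.88 in the other mice.

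Of 22 accessory and regulator genes of class II presentation, 16 were tested, 0 were called and 11 had a negative difference, with a median of -0.10. Ctsl, a cathepsin that degrades Cd74, had the smallest p, with 4.66 ± 0.09 in Tlx overexpressing mice and 4.89 ± 0.10 in wild type mice (SD, n = 4 and 5), a difference of -0.24 and an adjusted p of 0.163 in limma. Its signal was dim, not far above the undetected H2-Aa and Ciita probes, which lay near 4.2. Next came H2-DMb2, given above, and Nfyb, a subunit of the Y box factor, with a difference of 0.21 (adjusted p = 0.286 in limma). The listed genes H2-Ea, H2-Oa, H2-Ob, Rfx5 and Nfya were not detected in enough mice to test. Only 1 of the 16, H2-DMb2, was at its highest in c1.

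Interferon gamma is the best known inducer of Ciita. Of 13 genes of its pathway 8 were tested, 0 were called and 7 had a positive difference, with a median of 0.07. Gbp2, an interferon-induced GTPase, had 8.66 ± 0.24 in Tlx overexpressing mice and 8.25 ± 0.20 in wild type mice (SD, n = 4 and 5), an uncalled difference of 0.40 (adjusted p = 0.128 in limma). It was at 8.08 in c1, below the median of 8.45 in the other mice. Ifng itself, Irf8, Socs1 and Cxcl9 were not detected in enough mice. Jak1, a kinase of the receptor, had a difference of 0.22 (adjusted p = 0.313 in limma) and Cxcl10, an interferon-induced chemokine, 0.25 (adjusted p = 0.548 in limma). Of the 8 tested genes 0 were highest in c1.

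Of 6 costimulation genes 5 were tested, 0 were called and 0 were highest in c1. Cd86, a costimulatory ligand, had 5.94 ± 0.21 in Tlx overexpressing mice and 5.54 ± 0.10 in wild type mice (SD, n = 4 and 5), a difference of 0.40 with an adjusted p of 0.0803 in limma, and was at 5.48 in c1. Cd274, which encodes PD-L1, had 0.19 (adjusted p = 0.323 in limma) and Cd40 -0.13 (adjusted p = 0.418 in limma). Cd40 was dim, with a mean of 4.82 in Tlx overexpressing mice and 4.95 in wild type mice. Of 10 class I genes 9 were tested, 0 were called and 7 had a positive difference, led by Psmb8, an immunoproteasome subunit, at 0.41 (adjusted p = 0.0685 in limma), with H2-D1, a class I heavy chain, at 0.32 (adjusted p = 0.180 in limma) and Psmb9, another immunoproteasome subunit, at 0.20 (adjusted p = 0.399 in limma). Of these 9 class I genes 3 were highest in c1. Their mean level had an r of 0.33 with Cd74 over the 9 mice (rho = 0.38, adjusted exact permutation p = 0.730 for r and 0.846 for rho), 0.54 without mice 2995 and 2996, and 0.64 on deviations from genotype means. Whether these lists differ from the class II chains was not tested.

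Microglial markers did not share the class II peak in c1. Of the microglial markers 14 were tested, and 0 were highest in c1. Their mean log2 level, centred over the mice, was 0.06 to 0.24 in Tlx overexpressing mice and -0.21 to 0.11 in wild type mice, with c1 the lowest at -0.21. Fcrls, a microglial signature gene, was higher in Tlx overexpressing mice, at 9.27 ± 0.30, than in wild type mice, at 8.58 ± 0.16 (SD, n = 4 and 5), with an adjusted p of 0.0354 in limma. The level of 5 border macrophage markers was -0.02 to 0.24 in Tlx overexpressing mice and -0.18 to 0.06 in wild type mice, and -0.09 in c1, where 1 of the 5 was highest. Among them F13a1 was called, with a difference of 0.58 (adjusted p = 0.0308 in limma), and Cd163, Lyve1, Pf4, Ms4a7, Cd209f and Siglec1 were not detected in enough mice.

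Most markers of other immune cells were at background. Of the dendritic cell markers, 3 of 11 were tested, while Itgax, Flt3, Cd209a, Xcr1, Clec9a, Ccr7, Irf4 and Ccl22 were not detected in enough mice. The level of the tested ones was 0.0079 to 0.20 in Tlx overexpressing mice and -0.14 to 0.11 in wild type mice, with 0.11 in c1. These genes, Itgae, Zbtb46 and Batf3, had uncalled differences of 0.17, 0.15 and 0.04. All 3 were dim, with genotype means of 4.50 to 4.81. None of the 7 T cell markers with a probe was detected in enough mice. Of the B cell markers only Fcmr was tested, and it was highest in c1 at 5.41, with a difference of -0.47 between genotypes (adjusted p = 0.0618 in limma), while Cd79b, Ms4a1, Cd22, Blk and Pax5 were not detected in enough mice. The level of 4 monocyte markers was 0.0034 to 0.26 in Tlx overexpressing mice and -0.23 to 0.10 in wild type mice, with 0.10 in c1. The differences of Vcan, Lyz2 and Fn1 among them were 0.23, 0.17 and 0.09, none of them called.

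Markers of the choroid plexus epithelium were also mostly highest in c1. Of these 11 genes 10 were highest in c1, and their level was -1.04 to 0.18 in Tlx overexpressing mice and 0.05 to 0.68 in wild type mice, with 0.68 in c1 and 0.43 in c2. Differences between genotypes were negative for 11 of 11 and called for Calml4 and Steap1, and Ttr, the defining one, was at 13.78 in c1 against a median of 13.59 in the other mice. Wild type mouse 3164 had the lowest Cd74 at a choroid plexus level of 0.27. The level of 9 leptomeningeal fibroblast markers was -0.43 to 0.25 in Tlx overexpressing mice and 0.0019 to 0.26 in wild type mice, again with c1 at 0.26. Igf2, Slc6a13 and Ptgds, which had the smallest p of that list, had uncalled differences of -0.36, 0.34 and -0.59. The part of these tissues in the class II signal was not tested.

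**Figure D5:**
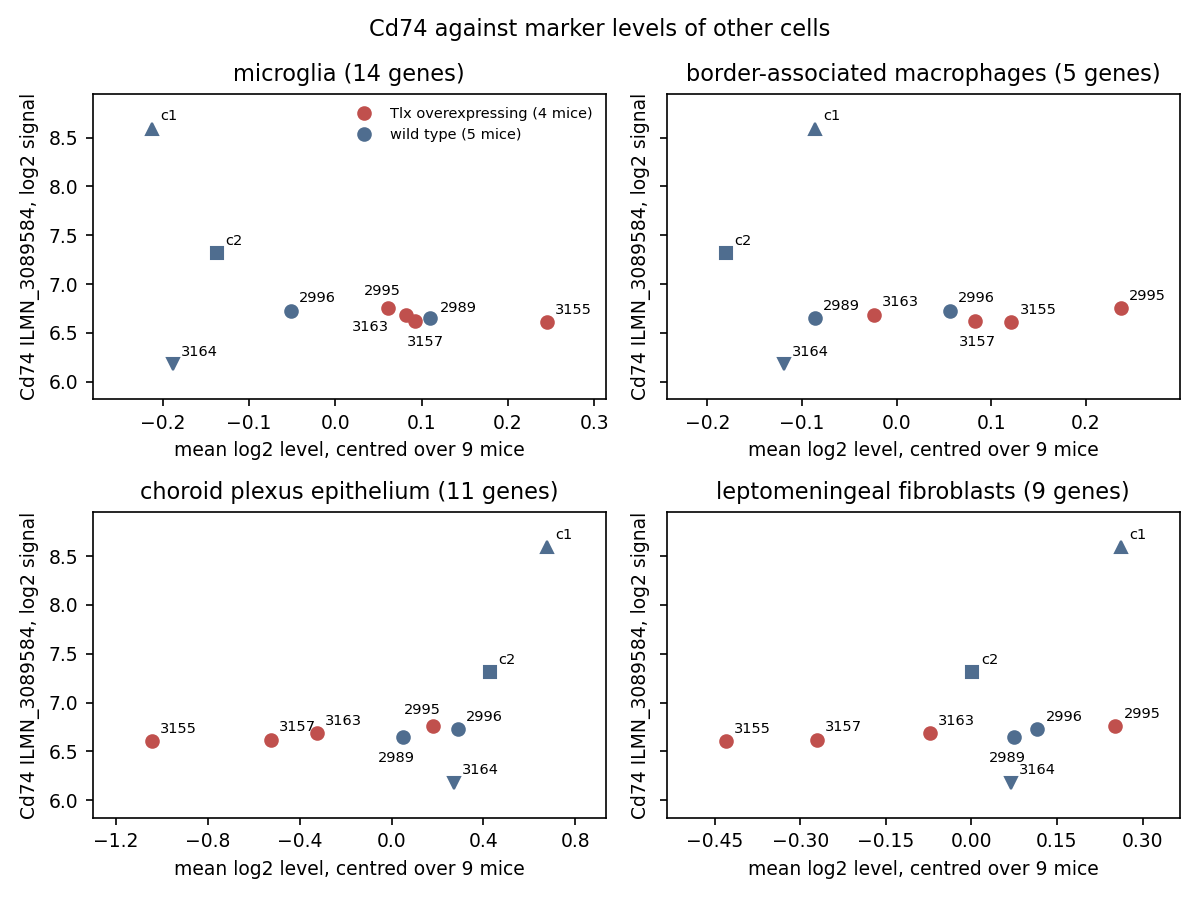
Log2 signal of Cd74 ILMN_3089584 (vertical axis) against the mean centred log2 level of 4 marker lists (horizontal axes), 1 point per mouse, Tlx overexpressing in red and wild type in blue. Mouse c1, highest for Cd74, is lowest for microglial markers at -0.21 and highest for choroid plexus markers at 0.68.

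Over the 9 mice, the level of 12 lists was set against Cd74, and 0 passed an adjusted exact permutation p of 0.05. Choroid plexus markers had the highest r, 0.52 (rho = 0.70, exact permutation p = 0.150 for r and 0.0433 for rho, adjusted to 0.664 and 0.456). It was 0.66 without mice 3155 and 3157, the farthest from the median level, and -0.15 without c1 and c2. Microglial markers had the lowest, -0.49 (rho = -0.50, adjusted exact permutation p = 0.664 for r and 0.711 for rho). Without mice c1 and 3164, the farthest from the median of that level, it was -0.80 over 7 mice, and without c1 and c2 it was 0.61. Monocyte markers had an r of 0.39 with Cd74 over the 9 mice. On deviations from genotype means, with no p computed, they had the highest r, 0.65. Class I genes had 0.64 there, dendritic cell markers 0.49 and choroid plexus markers 0.45.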

How the data were processed

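Per the file headers, the authors deposited probe intensity on a linear scale in 2 tables, with detection p-values for every probe on each array. The table they called non-normalized held quantile-normalized values, so the signals before normalization in the other deposited table were the starting values. Earlier steps are not given in the sources used here. The neqc method (limma 3.58.1, R 4.3.3) subtracted background by normexp, with the negative controls' distribution estimated through the detection p-values, added an offset of 16, quantile-normalized the arrays and took log2. The number of arrays limits the precision, and levels of different probes are not comparable. The 2 arrays of c1 were averaged. Probes with a detection p-value under 0.05 in at least 4 of 9 mice were kept (20401). The genotype difference was fitted by limma (lmFit, then eBayes; two-sided), with p adjusted by Benjamini-Hochberg over all kept probes. Correlations over mice used the brightest probe of a gene, exact two-sided permutation over all pairings and Benjamini-Hochberg adjustment. The procedure was tested on simulated data.

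Probe symbols came from the platform annotation, with 34807 matched to the RefSeq table of GRCm38.p6. Probes naming several genes (18) or none (10378) were left unnamed. The members and the lists were chosen with earlier results of these data known. Named genes were every probe of the members, in each list the genes past the threshold or those with the smallest p, and the 12 genes most and 5 least like Cd74 by r. The lists were accessory and regulator, costimulation, interferon gamma and class I genes, and markers of microglia, border macrophages, dendritic cells, monocytes, B cells, T cells, choroid plexus, leptomeningeal fibroblasts, blood and SVZ tissue. A listed gene is given by its brightest probe. The level of blood genes was -0.13 to 0.23 in Tlx overexpressing mice and -0.27 to 0.21 in wild type mice, and that of 9 SVZ genes was 0.03 to 0.22 in Tlx overexpressing mice and -0.21 to 0.08 in wild type mice, with Dcx and Egfr called higher. Alternatives changed the offset, background, normalization, filter, c1 array, weights, block, covariate, correlated probe and mice; leaving out c1 and c2 together was added after seeing the data.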

Additional observations from a re-analysis of the deposited data

Results flagged for a closer look

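Of 26 sets of values (13 probes in 2 genotypes) examined for a lone mouse, 1 stood out. Cd74 probe ILMN_1247832 was at 5.28 in wild type mouse c1, with the next wild type value at 4.45 in c2, a gap of 0.824 of the whole wild type range. Such a rule marks about 1 set in 20 by chance, and this probe was detected in c1 only, so it was not tested between genotypes. In the brighter Cd74 probes, as in this one, c1 was highest and c2 lay between it and the other mice.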

How the results depend on the processing

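Under all 20 other settings 0 of the members' tested probes were called, with adjusted p of 0.0893 to 0.999 in limma. The direction of most members turned under a few settings, and in the fit with the choroid plexus covariate each SE exceeded the difference. Adjusted for the level of choroid plexus genes, the difference was 0.23 for Cd74 ILMN_3089584, 0.11 for ILMN_1221817, 0.087 for H2-Ab1 ILMN_1226525, 0.18 for ILMN_2631423, 0.16 for ILMN_2913716, 0.20 for H2-Eb1, 0.027 for H2-DMa ILMN_2777769 and 0.027 for H2-DMb1. With the range of the mouse name as a block, where c1 and c2 add nothing to it, the difference was 0.27, 0.24, 0.22, 0.21 and 0.12 for the same Cd74 and H2-Ab1 probes and 0.19 for H2-Eb1. Without both c1 and c2 it was 0.15, 0.062, 0.16, 0.16 and 0.045 for those probes, 0.010 for H2-Eb1 and 0.023 for H2-DMa ILMN_2866856. Leaving out each mouse in turn gave -0.65 to -0.05 for Cd74 ILMN_3089584, -0.72 to -0.11 for ILMN_1221817, -0.61 to -0.07 for H2-Ab1 ILMN_1226525, -0.49 to -0.05 for ILMN_2631423, -0.55 to -0.12 for ILMN_2913716, -0.69 to -0.17 for H2-Eb1, -0.07 to 0.030 for H2-DMa ILMN_2866856 (0.030 without 2995 and 0.00039 without 3164), -0.13 to 0.0043 for ILMN_2777769 (above 0 without 3164) and -0.42 to -0.24 for H2-DMb1. The offset of 50, no background correction, the authors' quantile-normalized intensities, either filter, array weights and either array of c1 turned no member's direction.

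The count of all probes called, 192, was 609 with array weights, 122 with the offset of 50, 56 with no filter, 51 with the block, 6 with the covariate, 99 without c1 and c2, and 26 to 754 on leaving out 1 mouse (754 without 2995, 71 without 3155, 26 without 3157, 39 without 3163, 63 without c1, 84 without 2996 and 122 without 3164).

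The median r over the 10 pairs, 0.72, was -0.23 without c1 and c2 and 0.38 (without c1) to 0.85 (without 3164) on leaving out 1 mouse. Without c1 and c2, r was -0.69 for Cd74 with H2-DMa, -0.22 for Cd74 with H2-DMb1, -0.30 for H2-Ab1 with H2-DMa, -0.23 for H2-Ab1 with H2-DMb1, -0.83 for H2-Eb1 with H2-DMa and -0.28 for H2-DMa with H2-DMb1. With the probe of largest SD, H2-DMa had r of -0.090 with Cd74, -0.068 with H2-Ab1, -0.020 with H2-Eb1 and 0.44 with H2-DMb1. Leaving out 1 mouse gave -0.10 to 0.41 for Cd74 with H2-DMa, -0.22 to 0.29 for H2-Eb1 with H2-DMa and -0.011 to 0.37 for H2-DMa with H2-DMb1, each lowest without c1. The relation of H2-DMb1 with Cd74 or H2-Ab1 also lost its call, at an adjusted p above 0.05, without c1, c2, 2989, 2996, 3155, 3157 or 3163 and with the second array of c1 alone. That of H2-Ab1 with H2-Eb1 and of H2-Eb1 with H2-DMb1 was lost without c1 or c2. The causes were not tested. The block, the covariate and array weights define no r and were not run for it.

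No paired analysis was possible because the mouse names pair no Tlx overexpressing mouse with a wild type one. Signal close to background limits H2-Aa, Ciita and the third Cd74 probe, which were not tested.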
